A study of Mus musculus with 5 samples.

Results

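The 49 genes described here carry out mitosis and build the kinetochore, the protein plate that ties each chromosome to the spindle. They were chosen by name, as the rows of the deposited gene lists whose symbol was one of the 49, and make up 49 of the 28001 genes in those lists. By role they fall into 8 groups, with 4 genes of chromosome structure, 8 of Cdk1 and entry into mitosis, 4 of the chromosomal passenger complex, 8 of the kinetochore, 5 of the spindle checkpoint, 5 of the anaphase promoting complex, its targets and cohesion, 9 of the spindle and 6 of cytokinesis. All 49 were found once in the gene list.

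The cells came from whole hindlimb muscle of C57BL/6J mice of the genotype Hic1CreERT2/CreERT2;Rosa26LSLtdTomato/+, in the quiescent state and at 1, 2, 4 and 14 days after injury with notexin, a snake venom phospholipase that destroys muscle fibres. All 5 groups, the quiescent one included, carried 2 copies of the CreERT2 allele at Hic1 and 1 copy of the reporter, and all had received 2.5 mg of tamoxifen in 100 uL of sunflower oil a day for 5 days from 8 weeks of age, with a washout of 10 days. CreERT2 at Hic1 recombines the reporter in cells that express Hic1 at the time of tamoxifen, so that tdTomato marks those cells and their descendants, whatever they have become. Mesenchymal progenitors positive for tdTomato were sorted, and each time point became 1 droplet library of the 10x Chromium 3' v2 kind. How many animals a library holds is not stated in the labels. With 1 library per time point no difference below has a replicate check or a p-value. Each difference between time points is also one between libraries, while classes or cells of the same day are compared within 1 library.

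Entry into mitosis is driven by Cdk1 with its B-type cyclins. Condensin then compacts the chromosomes, the spindle captures their kinetochores, and the checkpoint delays separation until all are attached. The anaphase promoting complex, activated by Cdc20, then has securin and the cyclins destroyed, the sister chromatids part and the midzone and the contractile ring divide the cell. Transcripts of most of these genes accumulate late in the cell cycle and are sparse in resting cells, which is why they are used to find dividing cells. Connective tissue progenitors of muscle are known to rest in uninjured tissue and to multiply in the days after injury.

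A recurrent feature of such genes is a pair of short promoter motifs, the cell cycle homology region TTTGAA, bound by the complexes that silence them outside late cell cycle, and the CCAAT box, bound by NF-Y. The promoters below are shown because their genes had the highest ratios of day 2 to the quiescent library among the members whose promoter holds both motifs. They are RefSeq sequences of GRCm38.p6 that run 250 bases before to 50 bases after the annotated start, written 5′ to 3′ on the strand of the gene. Capitals mark every TTTGAA and CCAAT on either strand, so that CCAAT appears as ATTGG where it lies on the other strand. Cdca8 is at chr4:124936868-124937167 on the minus strand, Hmmr at chr11:40733388-40733687 on the minus strand, Kif23 at chr9:61946750-61947049 on the minus strand, Cdk1 at chr10:69352863-69353162 on the minus strand and Cdca3 at chr6:124829926-124830225 on the plus strand.
Cdca8: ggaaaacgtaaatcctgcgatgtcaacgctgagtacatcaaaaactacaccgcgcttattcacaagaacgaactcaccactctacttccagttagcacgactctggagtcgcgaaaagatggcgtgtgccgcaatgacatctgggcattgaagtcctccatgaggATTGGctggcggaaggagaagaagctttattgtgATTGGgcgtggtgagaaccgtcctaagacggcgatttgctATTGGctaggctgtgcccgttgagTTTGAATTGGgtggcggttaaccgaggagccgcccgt
Hmmr: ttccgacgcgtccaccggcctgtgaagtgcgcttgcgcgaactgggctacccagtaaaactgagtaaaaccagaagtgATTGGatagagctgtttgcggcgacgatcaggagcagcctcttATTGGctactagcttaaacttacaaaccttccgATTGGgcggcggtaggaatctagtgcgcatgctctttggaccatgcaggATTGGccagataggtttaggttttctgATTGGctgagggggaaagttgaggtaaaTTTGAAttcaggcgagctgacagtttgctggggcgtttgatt
Kif23: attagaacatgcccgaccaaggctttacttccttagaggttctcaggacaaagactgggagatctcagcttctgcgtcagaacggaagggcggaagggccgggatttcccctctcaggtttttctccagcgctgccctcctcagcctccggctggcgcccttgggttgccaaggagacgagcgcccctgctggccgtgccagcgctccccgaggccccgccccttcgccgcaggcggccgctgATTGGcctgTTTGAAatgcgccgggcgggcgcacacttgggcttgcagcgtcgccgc
Cdk1: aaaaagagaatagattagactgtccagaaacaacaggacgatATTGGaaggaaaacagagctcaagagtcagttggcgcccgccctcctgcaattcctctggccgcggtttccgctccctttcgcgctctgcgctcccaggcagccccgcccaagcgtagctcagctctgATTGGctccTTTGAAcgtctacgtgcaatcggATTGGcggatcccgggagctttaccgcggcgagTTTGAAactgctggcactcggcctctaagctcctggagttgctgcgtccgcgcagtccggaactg
Cdca3: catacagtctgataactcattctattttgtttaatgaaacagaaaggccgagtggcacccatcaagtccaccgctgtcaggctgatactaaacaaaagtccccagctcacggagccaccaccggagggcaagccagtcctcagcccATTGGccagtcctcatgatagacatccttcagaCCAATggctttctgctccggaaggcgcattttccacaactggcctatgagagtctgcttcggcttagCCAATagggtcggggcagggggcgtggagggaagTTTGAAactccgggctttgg

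In Cdca8 the TTTGAA and the ATTGG after it overlap by 1 base. A promoter was found for 40 of the 49 members, 39 by symbol and 1, Sgol1, by a synonym. TTTGAA or its reverse complement was present in 29 of the 40 (72.5%), against 18.1% of all 27025 promoters of the same length. CCAAT was present in 30 (75.0%), against 37.9% of all promoters, and at least 2 copies of it in 21 (52.5%), against 12.2%. Both motifs stood in 26 of the 40 member promoters (65.0%), against 7.12% of all. The related motif TTTAAA was in 9 (22.5%), against 13.2%. The median first base of a TTTGAA match was 2 bases after the start and that of a CCAAT match 67.5 bases before it. A match is a description of letters, and binding at these sites was not measured.

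The 5 libraries held 17213 barcodes, of which 17085 had at least 500 genes and at most 10% of unique molecular identifiers (UMIs) from mitochondrially encoded genes. Total UMIs per library ran from 8043771 in the quiescent library to 44552329 at day 1, and pairs of libraries shared 8 to 26 cell barcodes. A cell with at least 5 UMIs of the tendon genes Tnmd, Fmod, Kera and Chad was called a tenocyte, one with at least 5 UMIs of the pericyte genes Rgs5, Kcnj8, Abcc9 and Higd1b a mural cell, and all others remaining cells, apart from 6 that met both rules. The quiescent, day 1, day 2, day 4 and day 14 libraries held 126, 183, 99, 182 and 804 tenocytes, 112, 97, 42, 114 and 243 mural cells, and 1900, 4536, 2407, 3810 and 2424 remaining cells. Genes outside the rules bore the names out for each class as a whole. Thbs4 stood at 2607 to 9153 CPM in tenocytes and 56.0 to 257 CPM in remaining cells, and Notch3 at 165 to 569 CPM in mural cells and 1.15 to 11.4 CPM in remaining cells. Pdgfra, a marker of connective tissue progenitors, was found in 61.1% to 82.1% of remaining cells, and in the cells without member UMIs in 10.2% to 27.9% of tenocytes and 4.17% to 35.3% of mural cells. Dcn was found in 99.4% to 100.0% of remaining cells but also in 100% of those tenocytes and 40.8% to 59.8% of those mural cells. The sort and the capture of cells could set the share of each class.

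Levels are counts per 1000000 UMIs (CPM), summed over the cells of a class in a library. Since 3' tags are counted, the CPM of a gene does not depend on its length. A member is called higher or lower below where its CPM differed at least 2-fold and reached 20 CPM and 10 counts on the higher side. Values in parentheses after a fold or share are 95% intervals that cover counting error only. Against a gene at 0 the floor is 3 counts in that library, written as "at least". In quiescent remaining cells 1 cell held 357 of the 2497 member UMIs. Low quiescent levels, and day 1 levels below them, may thus rest on few cells, which was not tested.

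In the remaining cells the mitotic programme appeared between day 1 and day 2, was 2.30-fold lower in sum at day 4 than at day 2 and summed to 318 CPM at day 14, against 342 CPM in the quiescent library. The UMIs of the 49 members summed to 342, 411, 3005, 1308 and 318 CPM in the quiescent and day 1, 2, 4 and 14 libraries. At day 2, 37 of the 49 members were at least 2-fold higher than in the quiescent library, 2 that reached the level were not (Bub3 and Pttg1), and 10 did not reach 20 CPM. Of all 6074 genes tested, 11.3% were higher. The other 10 members had day 2 to quiescent ratios between 8.20 and at least 40.3, at day 2 levels between 7.24 and 19.6 CPM. The median log2 ratio over all 49 members was 3.80 with 1 CPM added to each level, or 4.72 with members at 0 set to the floor, against -0.03 over all genes tested. Of the 49 members, 47 had their highest level at day 2, Bub3 was highest at day 1 and Pttg1 at day 14.

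**Figure D1:**
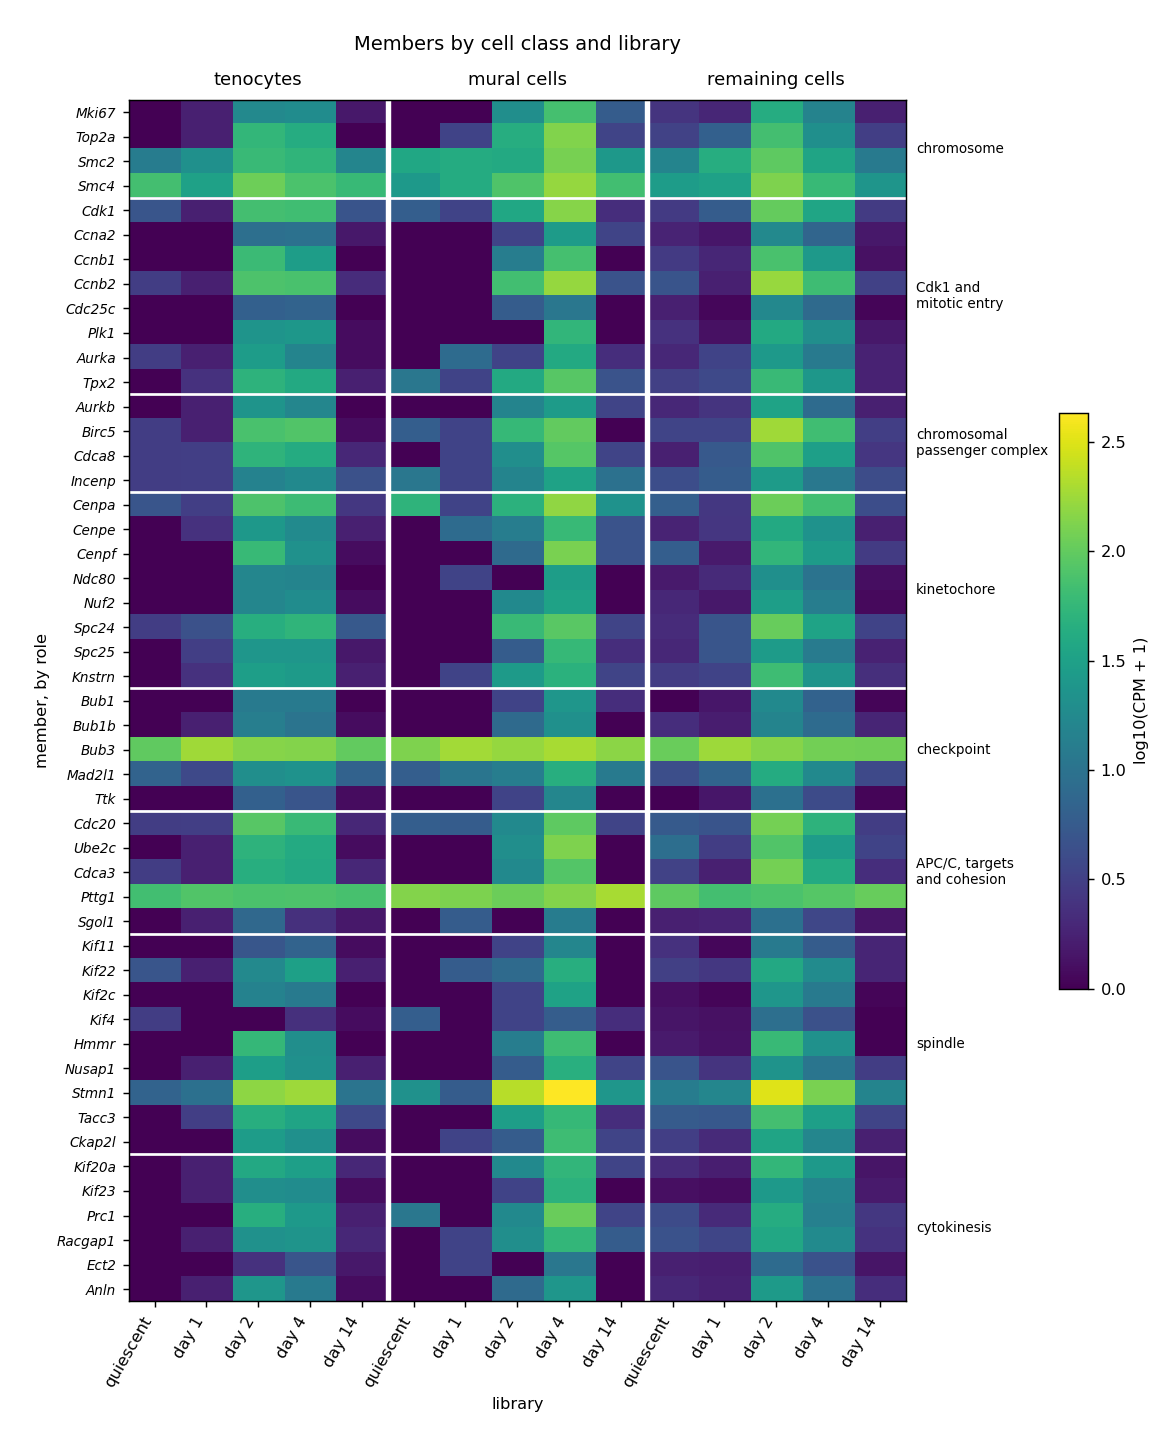
Level of each of the 49 members, as log10 of CPM plus 1, in tenocytes (left), mural cells (middle) and remaining cells (right), with the libraries from quiescent to day 14 in each block and members ordered by role. Most members are dark in the quiescent, day 1 and day 14 columns, brightest at day 2 in remaining cells and brightest at day 4 in mural cells, while Bub3 and Pttg1 are bright throughout.

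Genes of chromosome structure were all 4 higher at day 2. Smc4, a core subunit of condensin, stood at 27.4, 31, 133, 58.8 and 22.4 CPM in the quiescent and day 1, 2, 4 and 14 libraries, a day 2 to quiescent ratio of 4.87-fold (4.22 to 5.64). Smc2, its partner in condensin, stood at 14.5, 43.1, 95.2, 33.3 and 10.8 CPM in those libraries, a day 2 ratio of 6.57-fold (5.41 to 8.05). Top2a, the topoisomerase that untangles sister DNA, stood at 2.33, 5.41, 69.2, 19.3 and 2.09 CPM, a ratio of 29.8-fold (18.5 to 51.2). The condensin genes had a measurable level in resting cells, and Top2a was nearly silent there. Mki67, whose product coats mitotic chromosomes and which is the common stain for cycling cells, stood at 1.505, 0.937, 41.3, 13.9 and 0.723 CPM and was thus under 2 CPM in the quiescent, day 1 and day 14 libraries.

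Among the genes of entry into mitosis 6 of 8 were higher at day 2, and Ccna2 and Cdc25c stayed under 20 CPM. Ccnb2, a B-type cyclin, stood at 3.83, 0.703, 168, 64.0 and 2.25 CPM in the quiescent and day 1, 2, 4 and 14 libraries, a day 2 to quiescent ratio of 44.0-fold (30.4 to 66.2). Cdk1, the kinase itself, stood at 1.78, 4.87, 101, 34.4 and 1.85 CPM, a ratio of 56.6-fold (33.0 to 106). Ccnb1, the other B-type cyclin, stood at 1.78, 0.914, 75.0, 25.0 and 0.321 CPM, a ratio of 42.2-fold (24.6 to 79.3). All 3 were highest at day 2 and next highest at day 4, but at day 1 the cyclins lay below the quiescent library and Cdk1 above it. Tpx2, which activates Aurora A on the spindle, was at 59.5 CPM at day 2, Plk1, the polo-like kinase, at 39.1 CPM and Aurka, the Aurora A kinase, at 25.2 CPM, with day 2 ratios between 26.3 and 28.6.

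The 4 members of the chromosomal passenger complex, which corrects faulty attachments and later steers cytokinesis, were all higher at day 2. Birc5, the survivin gene, stood at 2.46, 2.46, 181, 65.9 and 2.09 CPM in the quiescent and day 1, 2, 4 and 14 libraries, a day 2 ratio of 73.6-fold (46.6 to 124). Cdca8, which encodes borealin, stood at 0.684, 4.48, 80.8, 29.9 and 1.61 CPM, a ratio of 118-fold (50.6 to 364), the highest of the 47 members with a UMI in the quiescent library, where Cdca8 had 5 UMIs. Aurkb, the kinase of the complex, stood at 0.958, 1.48, 33.0, 7.29 and 0.723 CPM, a ratio of 34.5-fold (16.7 to 86.0). All 3 stayed under 5 CPM in the quiescent, day 1 and day 14 libraries, and Aurkb had the largest fold between day 4 and day 2 of the 3, 4.53-fold lower (3.91 to 5.27) at day 4. Incenp, the scaffold, had a lower ratio, 8.50-fold (5.62 to 13.5).

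Of the 8 kinetochore genes 7 were higher at day 2, and Ndc80 ended just short of the level, at 19.6 CPM. Cenpa, the histone variant that marks centromeres, stood at 5.20, 1.66, 109, 67.7 and 3.21 CPM in the quiescent and day 1, 2, 4 and 14 libraries, a day 2 ratio of 20.9-fold (15.2 to 29.6). Spc24, of the complex that grips microtubules, stood at 1.09, 3.96, 104, 32.6 and 2.41 CPM, a ratio of 95.2-fold (48.3 to 221). Knstrn, which encodes a kinetochore protein that binds microtubules, stood at 1.92, 2.39, 64.0, 22.1 and 1.28 CPM, a ratio of 33.4-fold (19.9 to 61.3). Among the 8, Cenpa differed least between day 4 and day 2, at 1.61-fold lower (1.52 to 1.70) and so within the limit, while Spc24 was 3.19-fold lower (2.97 to 3.43) at day 4. Cenpf, Cenpe, Nuf2 and Spc25 were at 26.7 to 52.6 CPM at day 2, with ratios between 10.4 and 47.4.

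The checkpoint genes divided. Bub3, a checkpoint protein that is also present outside mitosis, stood at 108, 174, 141, 116 and 115 CPM in the quiescent and day 1, 2, 4 and 14 libraries, 1.31-fold (1.22 to 1.42) at day 2 against quiescent and so within the 2-fold limit. Mad2l1, the Mad2 inhibitor of Cdc20, stood at 3.28, 6.00, 40.8, 16.8 and 2.81 CPM, a ratio of 12.4-fold (8.31 to 19.4). Bub1, a checkpoint kinase, stood at 0, 0.445, 16.6, 5.76 and 0.0803 CPM, at least 40.3-fold higher at day 2. Bub3 was abundant in every library, and Bub1 was not seen at all among 7309210 quiescent UMIs. Bub1b, the BubR1 gene, reached 14.3 CPM at day 2 and Ttk, the Mps1 kinase gene, 8.28 CPM.

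Around the anaphase promoting complex 3 of 5 members were higher at day 2. Cdc20, its activator, stood at 4.51, 3.84, 119, 49.4 and 2.01 CPM in the quiescent and day 1, 2, 4 and 14 libraries, a day 2 ratio of 26.4-fold (18.7 to 38.4). Cdca3, an adaptor for destroying the Cdk1 inhibitor Wee1, stood at 2.33, 0.703, 119, 39.5 and 1.20 CPM, a ratio of 51.0-fold (31.8 to 87.7). Ube2c, the ubiquitin carrier of the complex, stood at 7.94, 2.04, 81.3, 27.8 and 2.41 CPM, a ratio of 10.2-fold (7.90 to 13.5). These 3 peaked together at day 2, and Ube2c had the highest quiescent level of the 3. Pttg1, which encodes securin, the guard of the sister chromatids, was the opposite, at 94.4, 69.8, 77.0, 86.6 and 105 CPM in the same libraries. Its day 2 value was 1.23-fold lower (1.12 to 1.33) than the quiescent one, a difference no larger than the 0.30 on the log2 scale by which DESeq2's size factors raise day 2 ratios. With Bub3 it made up 59.1% of all member UMIs in quiescent remaining cells and 7.26% at day 2. Sgol1, the shugoshin that protects cohesion, reached 8.28 CPM at day 2.

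Of the 9 spindle genes 7 were higher at day 2. Stmn1, a microtubule destabilizer, stood at 11.9, 15.1, 319.7, 126 and 14.4 CPM in the quiescent and day 1, 2, 4 and 14 libraries, a day 2 ratio of 26.9-fold (21.8 to 33.6). Tacc3, which steadies spindle fibres, stood at 4.65, 4.29, 69.4, 29.9 and 2.49 CPM, a ratio of 14.9-fold (10.6 to 21.6). Hmmr, a spindle assembly factor, stood at 0.547, 0.351, 58.0, 20.6 and 0 CPM, a ratio of 106-fold (41.3 to 389). Stmn1 was the most abundant member at day 2, and Hmmr was the one of these 3 that was at 0 at day 14. Kif22, a motor on chromosome arms, Ckap2l, Kif2c, which pulls subunits from microtubule ends, and Nusap1 were at 21.8 to 37.5 CPM at day 2. Kif11, the motor that drives the poles apart, and Kif4, a motor on chromosomes, stayed at 11.2 and 8.18 CPM.

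Of the 6 cytokinesis genes 5 were higher at day 2. Kif20a, a midzone motor, stood at 1.09, 0.679, 54.8, 25.5 and 0.402 CPM in the quiescent and day 1, 2, 4 and 14 libraries, a day 2 ratio of 50.04-fold (25.3 to 116). Prc1, which bundles midzone microtubules, stood at 3.01, 1.05, 41.7, 13.0 and 1.69 CPM, a ratio of 13.9-fold (9.12 to 22.2). Racgap1, of centralspindlin, stood at 3.56, 2.58, 37.3, 17.2 and 1.45 CPM, a ratio of 10.5-fold (7.12 to 16.1). All 3 lay below the quiescent library at day 1 and above it at day 4. Kif23, the motor of centralspindlin, rested on 2 quiescent UMIs and had a ratio of 91.9-fold (25.4 to 760.4). Anln, the anillin gene of the contractile ring, was at 26.4 CPM at day 2, and Ect2, another cytokinesis gene, at 7.24 CPM.

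At day 1 the members had no common shift by median ratio, while replication genes were mostly higher. The summed member level was 1.20-fold (1.15 to 1.26) the quiescent one. By role group it ran from 0.624-fold (0.477 to 0.825) for cytokinesis to 1.83-fold (1.38 to 2.47) for the chromosomal passenger complex. Only 4 of the 49 members reached the level for a call at day 1 against quiescent, and 45 did not. Smc2, at 2.97-fold (2.44 to 3.65), was the 1 of those 4 counted as higher, where 15.5% of all 6045 genes tested were higher and 24.3% lower. The members' median log2 ratio at day 1 was -0.11, against -0.15 over all genes tested, and edgeR's TMM factors raise both by 0.55. Of 24 S phase genes 14 were higher at day 1 and 16 at day 2 against the quiescent library. Between day 1 and day 2, 37 of the 49 members were higher, against 9.68% of all 5423 genes tested, and 4 of the 24 S phase genes. Mcm5, a subunit of the replication helicase, was at 1.92, 60.5 and 65.8 CPM in the quiescent, day 1 and day 2 libraries. Tk1, thymidine kinase, differed, at 0.821, 5.34 and 113 CPM.

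The 51 other mitotic genes were mostly sparse. Of these 13 were higher at day 2 than in the quiescent library, 2 reached the level without a 2-fold difference and 36 did not reach 20 CPM. Cks2, a subunit that binds Cdk1, was at 230.2 CPM at day 2 and 8.89 CPM in the quiescent library, and Cenpm, a centromere protein gene, at 81.8 CPM and 1.09 CPM. H2afz, a histone variant gene used well beyond mitosis, was at 1622 CPM and 250.2 CPM. Their median log2 ratio was 2.38, against 3.80 for the 49 members and -0.03 for all genes tested.

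By day 4 the members were lower than at day 2 in remaining cells, while 48 of 49 ratios to the quiescent library were above 1. Of the 49, 33 were at least 2-fold lower at day 4 than at day 2 and none was higher, where 3.77% of all 5542 genes tested were lower. Against the quiescent library, 20 members were higher at day 4, 2 that reached the level were not, and 27 were under 20 CPM, with 6.34% of all 5945 genes tested higher. The day 4 count rests on that level, since 42 members were higher with a minimum of 5 CPM. At day 14 no member was higher or lower than in the quiescent library, and 46 of the 49 were under 20 CPM. Of all 5757 genes tested 1.04% were higher and 0.643% lower. With no minimum level, 3 members were higher and 16 lower. Bub3 and Pttg1 made up 69.1% of the day 14 sum. Without the 7 broadly expressed members named below the sum was 45.2 CPM at day 14 and 81.7 CPM in the quiescent library. The median log2 ratio over all 49 was -0.32. With members at 0 set to the floor it was -0.77 over the 46 members that then had a ratio. The genes of entry into mitosis summed to 7.07 CPM at day 14 and 13.4 CPM in the quiescent library, a ratio of 0.527 (0.391 to 0.710). A single cell held 357 of the 2497 member UMIs of quiescent remaining cells, and 1 held 301 of the 3961 at day 14. The interval does not cover such clustering, and how far the ratio rests on these cells was not tested.

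The share of cells that carried these transcripts followed the same course. Each cell was thinned to 1500 UMIs, and a cell with at least 3 member UMIs left was counted as positive. Of the remaining cells 22 of 1786 quiescent ones were positive (1.23%, 0.774 to 1.86), then 128 of 4536 on day 1 (2.82%, 2.36 to 3.35), 696 of 2407 on day 2 (28.9%, 27.1 to 30.8), 327 of 3810 on day 4 (8.58%, 7.71 to 9.52) and 28 of 2366 on day 14 (1.18%, 0.788 to 1.71). Unthinned, the shares were 11.7%, 53.1%, 71.0%, 43.5% and 19.9% in that order, with median depths of 3883, 8788, 11165, 7072 and 4938 UMIs. The broadly expressed members Bub3, Smc2, Smc4, Stmn1, Pttg1, Incenp and Spc24 can alone make a cell positive. With the other 42 members the positive cells were 4, 22, 511, 216 and 3 in that order. The quiescent and day 14 shares were then 0.224% and 0.127%. How much free RNA adds to these shares was not tested, since no cell type that should lack the members was captured in number.

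**Figure D2:**
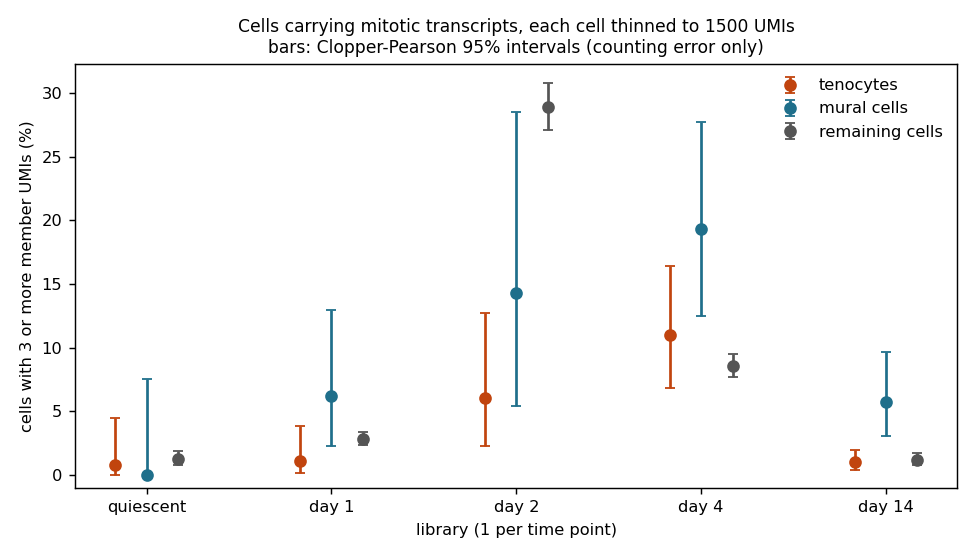
Percent of cells with at least 3 member UMIs after thinning each cell to 1500 UMIs, by library, for tenocytes, mural cells and remaining cells, with Clopper-Pearson 95% intervals that cover counting error only. Remaining cells peak at day 2 at 28.9%, mural cells are highest at day 4 at 19.3%, and tenocytes are at 6.06% at day 2 and 10.99% at day 4.

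Positive cells carried the members as a set. At day 2 the 696 positive remaining cells held 86.8% of the member UMIs of the class, with a median of 27 of the 49 members in a cell and of 82 member UMIs. They were also deeper before thinning, with a median of 17296 UMIs, against 8525 in the 932 cells with no member UMI left after it. Their summed member level was 6320 CPM at day 2 and 7807 CPM at day 4, and outside positive cells it was 675 CPM at day 2 and 347 CPM at day 4. Since the same UMIs choose the positive cells, these levels only describe them.

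Within the day 2 library each member was set against the other 48. The level of a member in cells positive for the other 48 was compared with that in cells with none of them left after thinning. Before thinning, day 2 remaining cells with none of the 49 left held a median of 2 member UMIs and at most 66. The median ratio was 39.0, 43 of 49 members were at least 10-fold higher, and 2 were under 2-fold. Kif23 had the highest ratio, 515 (92.1 to 20355), which rests on few UMIs in negative cells, and Hmmr was at 178. Ccnb2 was at 7.79 and Stmn1 at 8.80, abundant in positive cells but also found in cells with no other member left after thinning. Bub3 was at 1.84, and Pttg1 at 1.07, with an interval (0.977 to 1.18) that held 1. At day 4 the median was 111, and the lowest were the same 2, Pttg1 at 1.04 and Bub3 at 1.62. The values describe 1 library each, and the cells that define them share its capture.

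**Figure D3:**
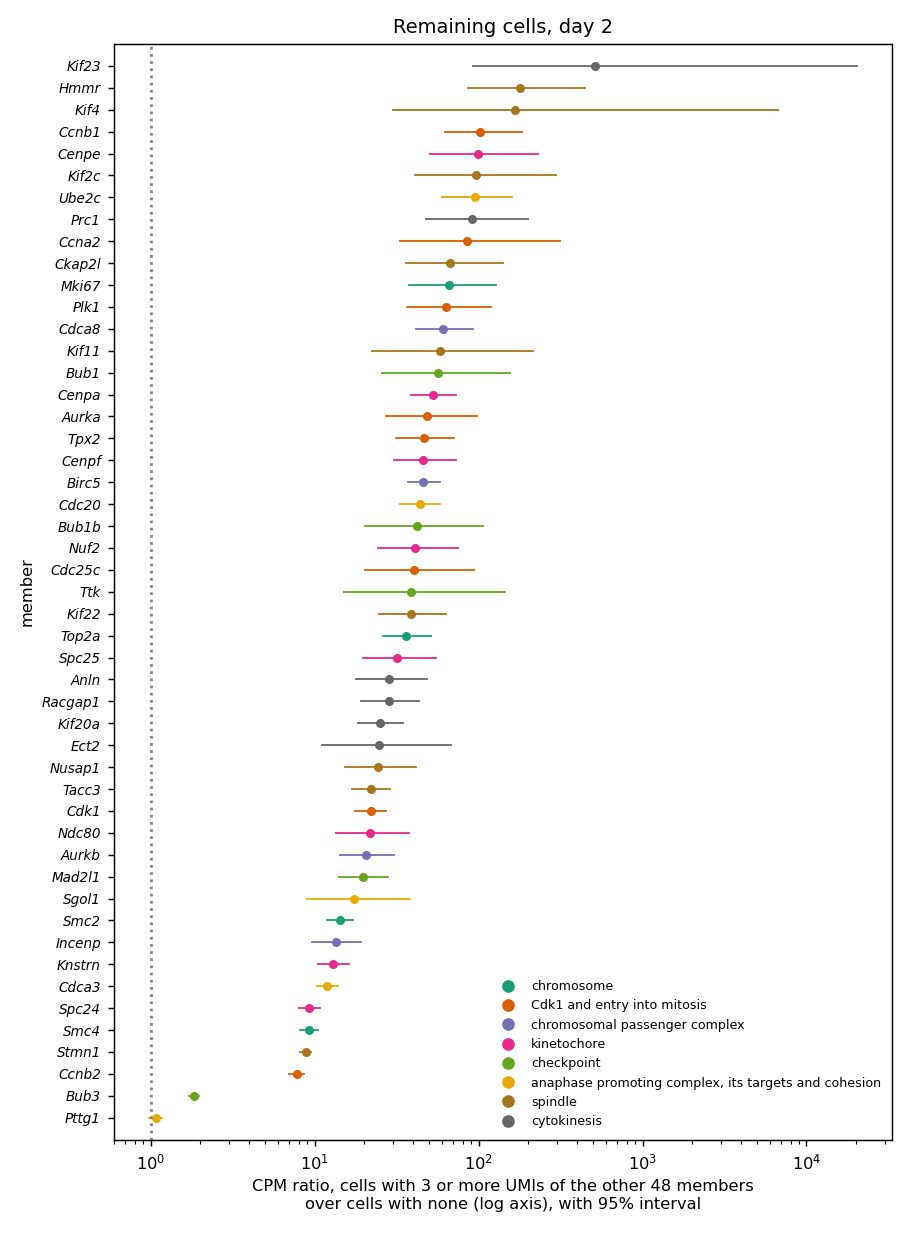
Ratio of each member's level between day 2 remaining cells with at least 3 UMIs of the other 48 members and cells with none, on a log axis, with 95% intervals for counting error and colours for roles. Most members lie between 10 and 100, and Bub3 at 1.84 and Pttg1 at 1.07 lie apart at the bottom.

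Genes outside the 49 that went with the members at day 2 included many known mitotic genes. The 10475 genes with at least 50 UMIs over the cells compared were ranked by the ratio of positive to negative remaining cells. Negative cells, here and below, had no member UMI left after thinning. The 15 highest were Esco2, Aspm, Ska1, Kif15, Hist1h1b, Casc5, Nek2, Cdca5, Ccnf, Ncapg, Cep55, Depdc1a, Pbk, Mxd3 and Iqgap3. Esco2, which establishes sister chromatid cohesion, was at 30.3 CPM in positive cells and 0.108 CPM in negative cells. Aspm, a spindle pole gene, was at 24.0 CPM in positive cells and 0.108 CPM in negative cells. Of the 50 highest, 21 were among the 51 other mitotic genes, none was among the 24 S phase genes, and 35 were also among the 50 highest at day 4.

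The lowest 10 by the same ranking were Inmt, Pi16, Sema3e, Adhfe1, Serpina3c, Sema3d, C4b, Gpr1, Gm765 and Apod. Pi16, a marker of adventitial fibroblasts, was at 94.6 CPM in positive cells and 1146 CPM in negative cells at day 2, 12.1-fold lower. At day 4 it was at 451 CPM in positive cells and 2575 CPM in negative cells. Apod, an apolipoprotein gene, was at 86.5 CPM in positive cells and 739 CPM in negative cells at day 2, and Inmt, a methyltransferase gene, at 5.36 CPM and 114 CPM.

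Mural cells also carried the members, and at another time. Summed over the members, mural cells had 458, 468, 1320, 3731 and 559 CPM in the quiescent and day 1, 2, 4 and 14 libraries. The day 4 level was 2.83-fold (2.57 to 3.11) that of day 2 in mural cells, whereas in remaining cells day 4 was 2.30-fold (2.27 to 2.32) lower than day 2. Of the 49 members, 47 had their highest mural level at day 4. Between day 2 and day 4, 34 members were higher in mural cells and none was lower, where 14.4% of all 6296 genes tested were higher and the median log2 ratio of all genes tested was 0.15. The interval of 31 of the 34 lay above 1. Against quiescent mural cells 35 of the 43 members that reached the level were higher at day 4, with 17.8% of all 5383 genes tested higher. At day 2 they were 8 of the 14 that reached it, with 20.1% of all 4934 genes tested higher, and 35 did not reach it. At day 14, Smc4 was higher and Cenpa lower than in quiescent mural cells, where 11.2% of all 5406 genes tested were higher and 3.88% lower. Only 5 of the 49 members reached the level in that comparison, and 44 did not.

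Top2a stood at 0, 2.41, 43.1, 137 and 2.45 CPM in mural cells of the quiescent and day 1, 2, 4 and 14 libraries, a day 4 to day 2 ratio of 3.17-fold (1.89 to 5.61). Cdk1 stood at 5.08, 2.41, 35.9, 142 and 1.22 CPM in mural cells of those libraries, a ratio of 3.94-fold (2.26 to 7.35). Cenpf, a kinetochore protein gene that peaks late in the cycle, stood at 0, 0, 7.19, 127 and 3.67 CPM, a ratio of 17.6-fold (5.81 to 87.4). For all 3, day 4 was the highest library by a wide margin. Ube2c stood at 0, 0, 19.2, 132 and 0 CPM and Prc1 at 10.2, 0, 16.8, 107 and 2.45 CPM in mural cells of those libraries. Stmn1 stood at 20.3, 4.82, 223, 428 and 23.2 CPM and was the most abundant member in mural cells at day 2 and day 4. Its day 4 to day 2 ratio of 1.92-fold (1.51 to 2.46) fell short of 2. Plk1, Ndc80, Sgol1 and Ect2 had no UMI in mural cells at day 2, and Plk1 had 32 and Ndc80 17 UMIs at day 4. Of the 24 S phase genes none was higher and 1 was lower in mural cells at day 4 against day 2.

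Set against the level in remaining cells of the same library, mural cells were low at day 2 and high at day 4. At day 4, 38 of the 49 members were higher in mural than in remaining cells and none was lower, where 15.4% of all 6440 genes tested were higher and the median log2 ratio of all genes tested was 0.26. The summed level was 2.85-fold (2.73 to 2.98) that of remaining cells. Prc1 had the largest difference, at 107 CPM in mural cells and 13.0 CPM in remaining cells, 8.20-fold (6.20 to 10.7). Top2a followed, at 137 CPM in mural cells and 19.3 CPM in remaining cells, 7.10-fold (5.56 to 8.96). At day 2, 29 members were lower in mural than in remaining cells, where 3.58% of all 5531 genes tested were lower, and the summed level was 2.28-fold (2.09 to 2.48) lower. Cdc20 was then at 16.8 CPM in mural cells and 119 CPM in remaining cells, and Ccnb1 at 11.98 CPM and 75.0 CPM.

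No quiescent mural cell of 47 was positive, which allows a share of up to 6.38% by the limit of 3 counts. Positive mural cells were 6 of 97 on day 1 (6.19%, 2.30 to 13.0), 6 of 42 on day 2 (14.3%, 5.43 to 28.5), 22 of 114 on day 4 (19.3%, 12.5 to 27.7) and 13 of 226 on day 14 (5.75%, 3.10 to 9.64). Another 65 quiescent mural cells had fewer than 1500 UMIs and could not be counted. With the 42 members that are not broadly expressed, the positive cells were 0, 0, 5, 16 and 1 in the same order, so without Bub3, Pttg1 and the other broadly expressed members no day 1 mural cell and 1 day 14 mural cell was positive. The day 4 share was above that of remaining cells in the same library, 8.58% (7.71 to 9.52). At day 2 the share was 0.494 times that of remaining cells, with an interval (0.235 to 1.04) that held 1. The mural intervals of day 2 and day 4 overlapped. With at least 8 member UMIs, 13 mural cells were positive at day 4 (11.4%, 6.21 to 18.7), against 158 remaining cells (4.15%, 3.54 to 4.83). Unthinned, 51.8% of mural and 43.5% of remaining cells had 3 or more member UMIs at day 4, at median depths of 4059 and 7072 UMIs.

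In the density of the 4 genes that define the class, the positive mural cells of day 4 were near their negative neighbours. Their median was 13.9 UMIs of the 4 class genes per 1000 UMIs, against 13.1 in the 43 mural cells with no member UMI left after thinning. Of the 22 positive cells, 20 held more class gene UMIs than UMIs of 7 progenitor genes. Rgs5 stood at 11755 CPM in positive and 8401 CPM in negative mural cells of day 4, and Notch3, which was not part of the class rule, at 486 CPM and 357 CPM. Pdgfrb, also outside the rule, went the other way, at 344 CPM in positive and 643 CPM in negative cells. The richest of them held 383 UMIs of 47 members with 234 class gene UMIs and no progenitor gene UMI, and the fifth 191 UMIs of 42 members with 33 class gene and 196 progenitor gene UMIs. The level rested on few cells, since the 5 mural cells richest in members held 61.5% of the member UMIs. Without the richest cell the mural level was 2.42-fold (2.31 to 2.53) that of remaining cells at day 4. Without the richest 5 it was 1.23-fold (1.15 to 1.32). The remaining cells kept their richest cells in both, which by itself lowers the ratio.

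At day 2 the positive mural cells were poorer in class genes than those of day 4. None of the 6 held more class gene than progenitor gene UMIs, and 1 held 19 of each. Of the 17 negative mural cells 10 held more class gene UMIs, and the rest did not. The median of the positive cells was 1.64 class gene UMIs per 1000, against 7.69 in the negative cells. Their median for progenitor genes was 7.88 per 1000, against 0.739 in the negative cells. Rgs5 was at 1076 CPM in positive and 4349 CPM in negative mural cells. They were deep, with a median of 20094 UMIs, against 4732, so 5 class gene UMIs were reached at a lower density. A rule of 2 class gene UMIs per 1000, chosen after these values were seen, left 1 positive of 34 mural cells at day 2 (2.94%) and 21 of 106 at day 4 (19.8%, 12.7 to 28.7). Whether these cells are mixed droplets was not tested.

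**Figure D4:**
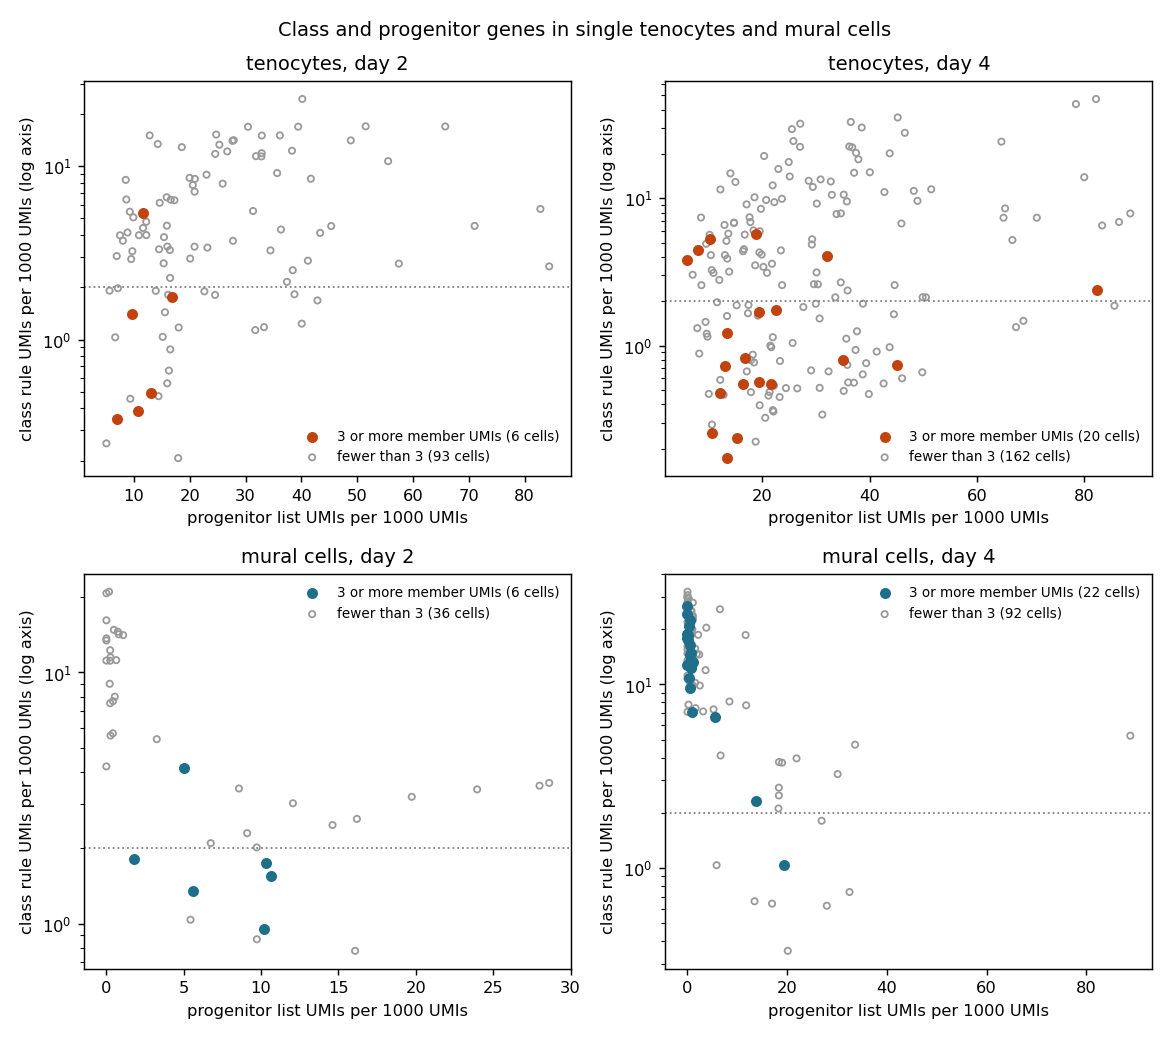
Each point is a tenocyte (top) or mural cell (bottom) of day 2 (left) or day 4 (right), by UMIs of 7 progenitor genes per 1000 UMIs (x axis) and UMIs of its 4 class genes per 1000 UMIs (y axis, log), filled where at least 3 member UMIs remained after thinning. The dotted line is 2 class gene UMIs per 1000. Filled mural cells of day 4 lie mostly at the upper left among the other mural cells, while most filled tenocytes lie below the line.

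Tenocytes carried members at day 2 and day 4, with a class identity that was weaker in the positive cells. Summed over the members, tenocytes had 287, 356, 1948, 1668 and 293 CPM in the quiescent and day 1, 2, 4 and 14 libraries. Against quiescent tenocytes 29 of the 32 members that reached the level were higher at day 2, with 11.5% of all 5941 genes tested higher. At day 4 they were 24 of the 27 that reached it, with 11.4% of all 5908 genes tested higher. Cdc20 stood at 1.98, 2.08, 88.6, 60.3 and 0.947 CPM in tenocytes of the quiescent and day 1, 2, 4 and 14 libraries, and Ccnb2 at 1.98, 0.692, 77.7, 73.6 and 1.18 CPM. Top2a stood at 0, 0.692, 54.5, 41.8 and 0 CPM and Stmn1 at 5.93, 8.30, 153, 175 and 9.23 CPM in tenocytes of those libraries. In all 4 the day 2 and day 4 levels were far above the other 3 libraries. Between day 2 and day 4, Hmmr, Cenpf, Ccnb1 and Anln were lower in tenocytes, 4 of 49 where 3.17% of all 5516 genes tested were lower, and none was higher. Anln was 2.06-fold lower with an interval that held 1 (0.987 to 4.28), and the day 2 levels rest in large part on 1 cell described below. Hmmr was at 19.2 CPM at day 4 and 55.9 CPM at day 2, 2.91-fold lower (1.76 to 4.85). At day 14 against quiescent only 3 of the 49 members reached the level in tenocytes, and 46 did not. None of those 3 was higher or lower, where 5.57% of all 5892 genes tested were higher and 3.34% lower.

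Of the tenocytes 1 of 123 quiescent ones was positive (0.813%, 0.0206 to 4.45), then 2 of 183 on day 1 (1.09%, 0.133 to 3.89), 6 of 99 on day 2 (6.06%, 2.26 to 12.7), 20 of 182 on day 4 (10.99%, 6.84 to 16.5) and 8 of 795 on day 14 (1.01%, 0.435 to 1.97). With the 42 members that are not broadly expressed they were 0, 0, 6, 12 and 0. At day 2 the share lay below the 28.9% of remaining cells, and at day 4 its interval held the 8.58% of remaining cells. The day 4 count was the highest of 20 repeated draws of the thinning, which gave 13 to 20, and the day 4 share was 1.28 times that of remaining cells. That ratio depends on the class rule. With at least 3 class gene UMIs, 39 of 252 tenocytes were positive at day 4 (15.5%, 11.2 to 20.5), against 308 of 3732 remaining cells (8.25%), a ratio of 1.88 (1.38 to 2.55), and with at least 10 the ratio was 0.846 (0.448 to 1.60). The day 2 draws gave 5 to 9 tenocytes and 654 to 720 remaining cells.

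In summed level tenocytes stood at 1948 CPM at day 2 and remaining cells at 3005 CPM, 1.54-fold (1.46 to 1.63) lower in tenocytes, and 9 members were lower and none higher in tenocytes, where 6.62% of all 5543 genes tested were lower. Cdca3 was at 43.6 CPM in tenocytes and 119 CPM in remaining cells, and Birc5 at 73.6 CPM and 181 CPM. A single tenocyte with 36422 UMIs held 52.1% of all member UMIs of day 2 tenocytes, 744 UMIs of 46 members. Without it the class summed to 983 CPM, below the 1668 CPM of day 4. Day 4 without its own richest tenocyte summed to 1424 CPM. At day 4 the sum was 1.27-fold (1.22 to 1.33) that of remaining cells, with Top2a at 2.17-fold (1.65 to 2.82) and Spc25 at 2.01-fold (1.38 to 2.85) as the 2 higher members, where 2.87% of all 5514 genes tested were higher. Without the richest tenocyte the day 4 ratio was 1.09, and without the richest 5 it was 0.572. The remaining cells were left whole in both, which by itself lowers the ratio.

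Positive tenocytes had few tendon transcripts for their depth. At day 2 their median was 0.950 UMIs of the 4 class genes per 1000, against 4.93 in the 56 tenocytes with no member UMI left after thinning. At day 4 it was 0.815, against 3.60 in 97 such tenocytes. Fmod stood at 412 CPM in positive and 3633 CPM in negative tenocytes of day 2, and Thbs4, which was not part of the rule, at 524 CPM and 6072 CPM. At day 4 Fmod stood at 580 CPM in positive and 2659 CPM in negative tenocytes, and Tnmd at 418 CPM and 1860 CPM. Chad, the chondroadherin gene, had no UMI in positive tenocytes of either day. Of the 20 positive tenocytes of day 4, 11 had at most 9 class gene UMIs, near the limit of 5, and median depth was 12782 UMIs in positive and 6352 in negative cells. With the rule of 2 class gene UMIs per 1000, 1 of 72 tenocytes was positive at day 2 (1.39%, 0.0352 to 7.497) and 6 of 105 at day 4 (5.71%, 2.13 to 12.02), and the summed level at day 4 was then below that of remaining cells, at 0.759 times it. Whether the positive tenocytes are mixed droplets or progenitors with a few tendon transcripts was not tested.

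**Figure D5:**
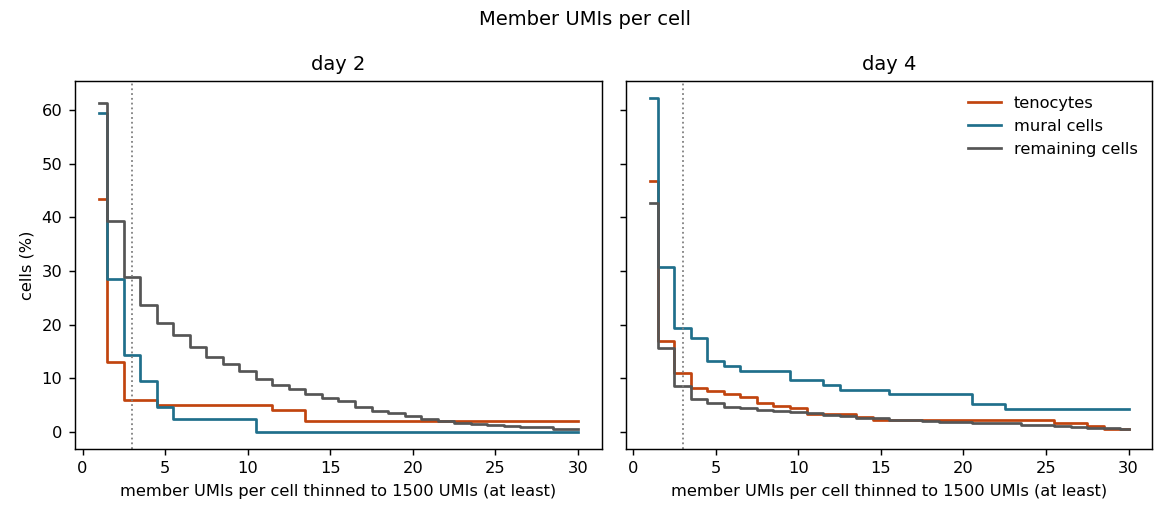
Percent of cells (y axis) with at least the number of member UMIs on the x axis, after thinning to 1500 UMIs, at day 2 (left) and day 4 (right) for tenocytes, mural cells and remaining cells, with a dotted line at 3. At day 2 remaining cells lie above both other classes up to 20 UMIs, and at day 4 mural cells lie above the others throughout.

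The genes of other cell types were low in all positive cells of the tenocyte and mural classes. None of them held 5 or more UMIs of the 7 macrophage, 5 endothelial, 5 myogenic, 5 Schwann or 5 red blood cell genes at day 2 or day 4. The summed level of each of these lists was between 0 and 20.01 CPM in the 2 classes at those days, with all 5 myogenic genes at 0 in tenocytes of both days and in mural cells of day 2. Among the positive remaining cells 1 of 696 at day 2 and 1 of 327 at day 4 passed that limit, both for myogenic genes.

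Cells with both replication and mitotic transcripts give a further view of the same order. At least 3 UMIs of the 24 S phase genes were left after thinning in 20 of 1786 quiescent remaining cells (1.12%), and then in 676 of 4536 on day 1 (14.9%, 13.9 to 16.0), 394 of 2407 on day 2 (16.4%, 14.9 to 17.9), 124 of 3810 on day 4 (3.25%) and 25 of 2366 on day 14 (1.06%). Of these, 0, 61, 298, 68 and 3 were also positive for the members. The day 2 and day 1 shares of S phase cells overlapped within their intervals, while cells with both were 12.4% (11.1 to 13.8) at day 2 and 1.34% (1.03 to 1.72) at day 1. In mural cells 10 of the 15 S phase cells of day 4 were positive for the members, and 2 of 7 at day 2. In tenocytes the count was 6 of 12 at day 4 and 2 of 3 at day 2.

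Rare cells with many members were present outside the injury peak. In the quiescent library 3 remaining cells had at least 8 member UMIs after thinning, with 357, 63 and 29 member UMIs of 45, 24 and 11 members before it. At day 14 there were 2 such remaining cells, with 301 and 32 member UMIs, and 1 such mural cell, with 29. At day 1 there were 10, all remaining cells. None of these 16 cells held 5 UMIs of macrophage, endothelial, myogenic or Schwann genes.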

How the data were processed

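The deposited files hold whole-number counts of UMIs per gene and cell barcode, which the authors made with Cell Ranger on mm10, per the submitters' processing notes. Its version is not stated there. The 49 members, the role groups and all other gene lists were chosen with earlier results of these data known.

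Cells with at least 500 genes and at most 10% mitochondrially encoded UMIs were kept. Cells that met both class rules (6) were placed in no class. Counts were summed per class and library and divided by the sum. Thinning drew 1500 UMIs per cell without replacement. Ratios have exact conditional binomial intervals and shares Clopper-Pearson intervals, all at 95%. With 1 library per group no test between groups was run. In each role group the 3 members of highest CPM in remaining cells at day 2 are given in every library. Scrublet called 12 doublets in all, too few to rely on, so doublets were kept and its 507 highest scores were left out as an alternative. The calls were tested on simulated data. Python 3.11.15, scipy 1.17.1 and scanpy 1.11.5 were used, with edgeR 4.0.16 and DESeq2 1.42.0 for scaling factors only.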

Additional observations from a re-analysis of the deposited data

Results flagged for a closer look

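The members moved in opposite directions between day 2 and day 4 in mural and remaining cells. In mural cells their summed level was 3731 CPM at day 4 and 1320 CPM at day 2, a ratio of 2.83 (2.57 to 3.11). In remaining cells it was 1308 CPM at day 4 and 3005 CPM at day 2, a ratio of 0.435, or 2.30-fold lower at day 4. The difference between the classes was not tested, since each day has 1 library. The 42 mural cells of day 2 and the 5 cells that held 61.5% of the mural member UMIs at day 4 limit the first ratio.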

How the results depend on the processing

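No paired analysis was possible because each group has 1 library. The day 2 count of 37 higher members stayed between 37 and 47 under 10 alternatives. The day 1 count of 1 became 2 with edgeR's TMM factors, DESeq2's size factors, a minimum of 5 CPM or a fold of 1.5, 7 with no minimum and 0 with a fold of 4. The day 4 count of 20 became 42 with a minimum of 5 CPM and 47 with none. The day 14 count of 0 became 3 with none. Members called lower against quiescent went from 0 to 16 at day 14 and to 13 at day 1 with no minimum. With a minimum of 5 CPM they were 2 at day 14 and 3 at day 1. TMM and DESeq2 factors shifted the median log2 ratio to quiescent by 0.55 and 0.58 at day 1, 0.25 and 0.30 at day 2 and 0.13 and 0.15 at day 4.

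The tenocyte to remaining ratio of the positive share at day 2, 0.210, was 0.597 unthinned, 0.470 with a class rule of 3 UMIs and 0.0480 with 2 UMIs per 1000, and the day 4 ratio of 1.28 was 1.88 with the rule of 3, 0.846 with a rule of 10 and 0.651 with the last. The mural ratio at day 2, 0.494 (0.235 to 1.04), was 0.234 with at least 5 and 0.171 with at least 8 member UMIs. It was 0.102 with 2 class UMIs per 1000, and the day 4 ratio of 2.25 was 1.19 unthinned. In summed level the tenocyte ratio of 0.648 at day 2 was 0.780 and 0.595 with class rules of 3 and 10 UMIs, 0.460 as a mean over cells and 0.115 with 2 per 1000. The day 4 ratio of 1.27 was 1.34 without the highest Scrublet scores, 1.73 and 1.08 with rules of 3 and 10, 1.12 as a mean over cells and reversed to 0.759 with 2 per 1000. The mural ratio of 0.439 at day 2 was 0.301 without the broadly expressed members and 0.228 with 2 per 1000. The day 4 ratio of 2.85 was 3.04 without those members, 2.72 and 3.12 with rules of 3 and 10, 2.71 as a mean over cells and 3.15 with 2 per 1000. The cause of these moves was not tested. The rule of 2 per 1000, the limit of 8 member UMIs and leaving out cells with genes of other cell types were chosen after seeing the data. The 42 mural cells of day 2 are few, and depth kept 65 quiescent mural cells from being thinned.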
